A study of Mus musculus with 8 samples.

Results

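Interferon-stimulated genes were followed in mouse spleen as a set of 41 genes, out of 17738 gene symbols measured, chosen by name as interferon-stimulated, at a time when earlier results of these data were known. Each gene was represented by its transcript with the highest mean, and the 41 genes have 53 of the 23517 transcripts in the data. They were divided into 32 type I antiviral genes, 8 GTPase genes induced strongly by interferon gamma (Igtp, Irgm1, Irgm2, Iigp1, Tgtp1, Gbp2, Gbp3 and Gbp5), and Ifi47, an immunity-related GTPase placed in neither class. All 41 reached the level required for testing, an average of 0.5 FPKM or more across the 8 spleens, as did 16608 transcripts in all. FPKM is the number of sequenced fragments scaled for transcript length and sequencing depth.

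Total RNA came from the spleens of untreated male C57BL/6 mice aged 8 to 12 weeks, 4 wild-type and 4 TTPΔARE. Zfp36 encodes tristetraprolin (TTP), a protein that hastens the decay of mRNAs holding AU-rich elements, and the TTPΔARE allele lacks the AU-rich element of the Zfp36 mRNA itself. The allele is in the germ line, so every cell type of the spleen carries it, and the labels do not state whether 1 or both copies are changed. Replicate numbers follow the order of deposition and pair no spleens. Each spleen was taken as 1 animal, and p-values measure the spread between these spleens. Whole spleen holds many cell types, so fewer cells of a type and less RNA per cell cannot be told apart. The estimated depth was 28.3 to 32.2 M fragments per spleen, and Zfp36 was 40.3 ± 3.91 FPKM in wild-type and 52.9 ± 4.90 FPKM in TTPΔARE (SD, n = 4 each; log2 0.39, limma adjusted p = 0.0323).

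Type I interferons signal through IFNAR1 and IFNAR2 to a complex that contains STAT2 and IRF9 and binds the interferon-stimulated response element (ISRE) in the promoters of antiviral genes. Interferon gamma signals through IFNGR1 and IFNGR2 and acts on promoters through the gamma-activated site (GAS). The guanylate-binding proteins (GBP) and the immunity-related GTPases (IRG) are known for attacking the vacuoles of intracellular pathogens, and many genes respond to both kinds of interferon.

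Promoter stretches are shown for Rsad2 and Isg20, the members that passed the test, for Isg15, which holds a run of overlapping ISRE cores, and for 3 IRG genes that share a block holding both elements. Letters are those of RefSeq on GRCm38.p6, on the strand of the gene, and capitals mark the ISRE core (GAAA, any 2 bases, GAAA) or the GAS core (TTC, any 3 bases, GAA), each searched on both strands.
Rsad2 (chr12:26456553-26456582, minus strand): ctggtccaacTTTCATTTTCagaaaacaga
Isg20 (chr7:78913341-78913369, plus strand): ctggggagggTTCTTGGAAtttttccttt
Isg15 (chr4:156200865-156200906, minus strand): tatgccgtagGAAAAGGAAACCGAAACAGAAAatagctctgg
Igtp (chr11:58199501-58199541, plus strand): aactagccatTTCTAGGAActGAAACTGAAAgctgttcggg
Irgm2 (chr11:58214892-58214932, plus strand): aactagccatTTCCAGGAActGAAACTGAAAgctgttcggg
Tgtp1 (chr11:48992304-48992344, minus strand): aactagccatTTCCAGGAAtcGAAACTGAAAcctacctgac
The Igtp, Irgm2 and Tgtp1 stretches each hold a GAS core followed by an ISRE core. The ISRE core begins 120 bases before the Rsad2 start site, and the GAS core of Isg20 lies 73 bases before one of its annotated start sites, with no ISRE core in any of its 3 windows. The first of the 3 overlapping ISRE cores of Isg15 begins 78 bases before its start.

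Promoter windows of 250 bases before to 50 bases after a start site were matched for 31 of the 41 members. An ISRE core was in the window of 18 of these 31, against 3.99% of 27018 genes. All 7 matched GTPase genes held one, as did 11 of 23 type I antiviral genes. A GAS core was in 4 of 7 GTPase genes and 5 of 23 type I genes, against 9.55% of all genes. These matches describe letters in a window and do not show binding. The heptamer TATTTAT, the kind of AU-rich site that TTP binds, was in the 3′ UTR of 5 of the 39 members with an annotated one, against 27.8% of 11736 tested genes. Those 5, with 1 heptamer each, were Ifit1, Ifih1, Ifi44, Oas3 and Usp18, and the 3′ UTRs of Rsad2 and Isg20 held none. Lengths of 3′ UTRs, among the members from 42 bases (Irf7) to 2788 bases (Dtx3l), were not matched in this comparison. A difference in length was therefore not separated from a difference in heptamers.

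Of the 41 interferon-stimulated genes, 2 rose in TTPΔARE spleens and none fell. The 2 were Rsad2, which encodes viperin, an enzyme that makes a chain-terminating nucleotide, and Isg20, which encodes an RNA exonuclease. The test was limma on log2(FPKM + 0.5) over all 16608 transcripts. Adjustment was by the Benjamini-Hochberg method, adjusted p under 0.05 counted as a call, and the test called 2.01% of all transcripts higher and 1.99% lower. At an unadjusted p under 0.05, 9 of the 41 members differed, 21.95% of them, against 21.1% of all tested transcripts. Of these, 7 were higher and 2 lower, against 11.6% and 9.47% of all transcripts. At an adjusted p under 0.1 there were 6 members, against 8.20% of all transcripts. The members' changes ran from -0.22 (Usp18) to 0.77 (Rsad2) on the log2 scale, with 24 above 0 and 17 below. Their median log2 change was 0.03, against 0.0031 over all tested transcripts, of which 51.0% were above 0. The groups did not overlap for 3 members that were higher and 1 that was lower in TTPΔARE, against 6.53% and 5.99% of all transcripts.

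**Figure D1:**
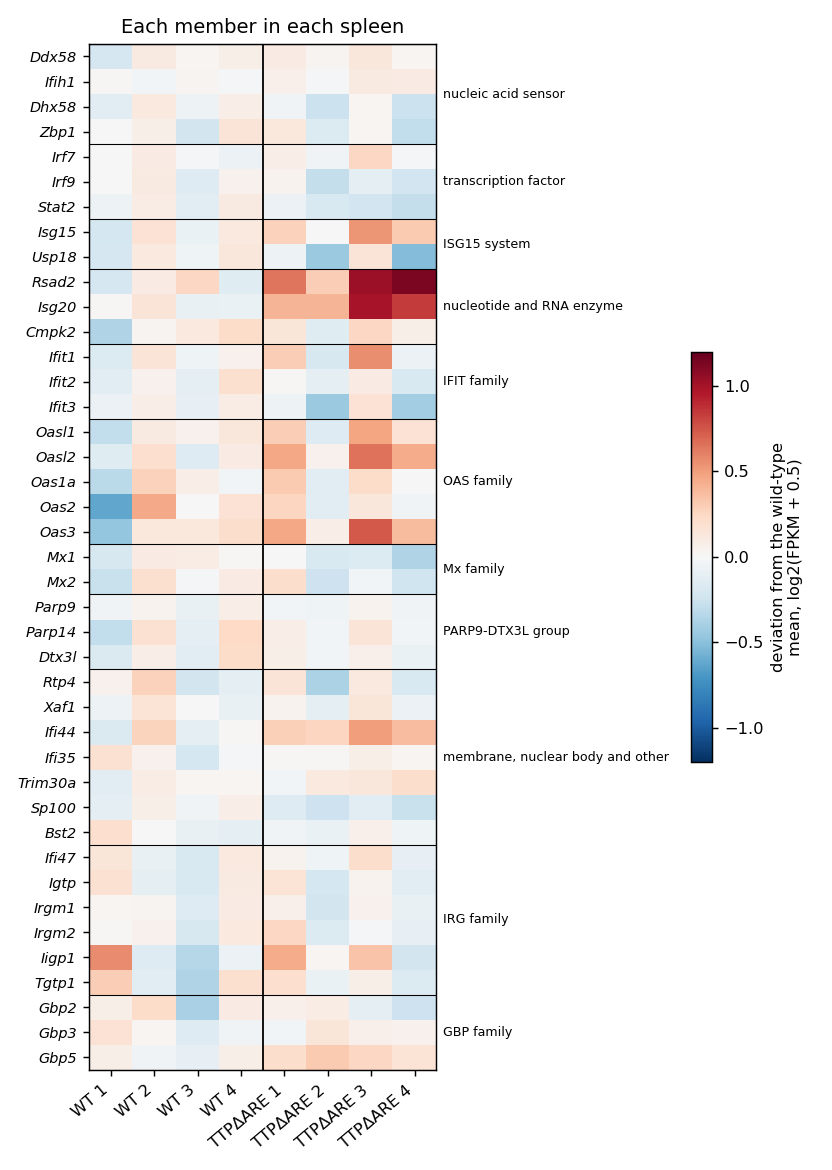
Deviation of each of the 41 genes in each spleen (columns) from its wild-type mean, in log2(FPKM + 0.5), with genes (rows) grouped by role. The strongest colours are in Rsad2 and Isg20 in TTPΔARE replicates 3 and 4, and most other rows show differences between spleens of the same genotype.

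**Figure D2:**
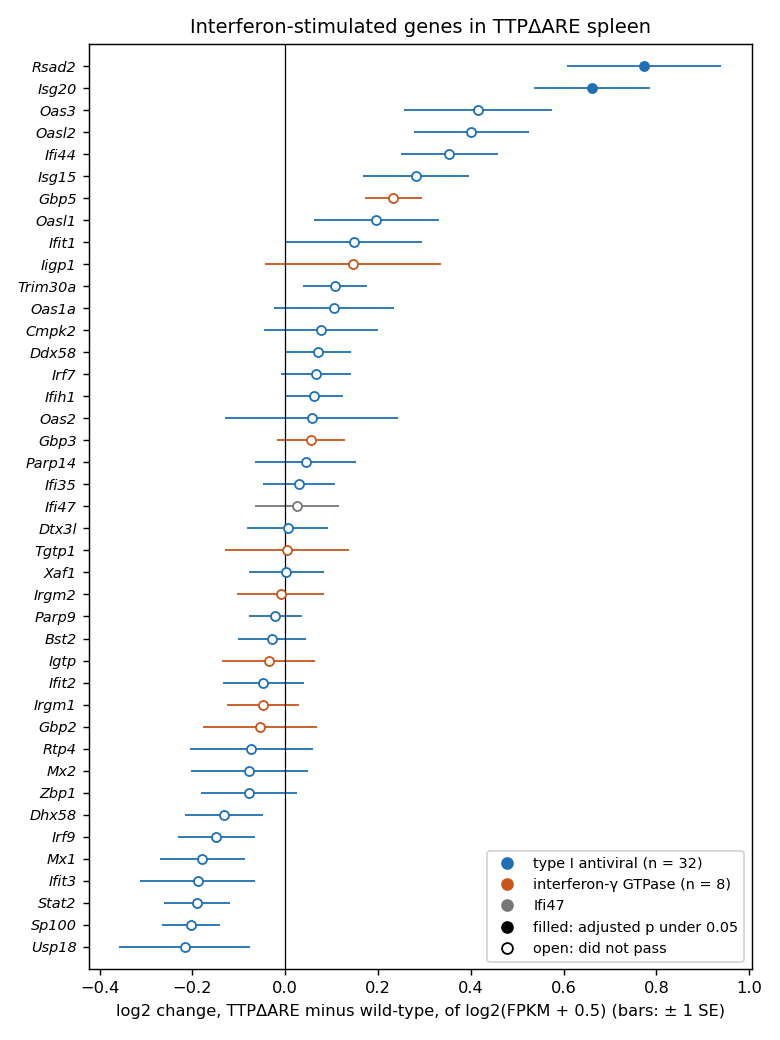
Log2 change of each member, TTPΔARE minus wild-type, on the horizontal axis, with bars of ± 1 SE from limma (n = 4 spleens each); blue marks type I antiviral genes, orange interferon gamma GTPases and grey Ifi47. Only the 2 filled points, Rsad2 at 0.77 and Isg20 at 0.66, have an adjusted p under 0.05.

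The sensors of foreign nucleic acid showed little difference between the genotypes. Ddx58 and Ifih1 encode RIG-I and MDA5, which detect viral RNA in the cytoplasm, Dhx58 encodes their relative LGP2, and Zbp1 encodes a sensor of Z-form nucleic acids. None of the 4 passed the test, and their log2 changes ran from -0.13 to 0.07. Ddx58, the most abundant at 12.2, 15.2, 14.3 and 14.8 FPKM in wild-type replicates 1 to 4, was at 15.1, 14.4, 15.5 and 14.3 FPKM in the TTPΔARE replicates. These ranges overlap, with wild-type replicate 1 lowest. Ifih1 had the smallest spread of all 41 members, a within-group SD of 0.0452 on the log2 scale.

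The transcription factors of the response did not rise. Stat2 and Irf9 encode parts of the complex that binds the ISRE, and Irf7 encodes the factor that amplifies type I interferon production. Stat2 was 21.3, 23.8, 20.3 and 24.0 FPKM in wild-type and 21.2, 19.6, 19.0 and 18.2 FPKM in TTPΔARE, a log2 change of -0.19 (SE 0.0709, limma adjusted p = 0.155). Only TTPΔARE replicate 1 lay inside the wild-type range, and the other 3 were below it. Irf9 changed by -0.15 and Irf7 by 0.07 on the log2 scale, and neither passed (adjusted p = 0.340 and 0.671, limma). For Irf7 an exact two-sided permutation test gave p = 0.486.

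The ISG15 system gave values of opposite sign, neither past the threshold. ISG15 is a ubiquitin-like protein that is attached to other proteins, and USP18 removes it and also restrains signalling from the type I receptor. Isg15 was 6.05, 8.01, 6.64 and 7.71 FPKM in wild-type and 8.68, 7.07, 10.4 and 8.91 FPKM in TTPΔARE (log2 0.28, SE 0.114, limma adjusted p = 0.186). All but TTPΔARE replicate 2 lay above every wild-type value. Usp18 was 4.33, 5.52, 4.88 and 5.62 FPKM in wild-type and 4.84, 3.59, 5.70 and 3.39 FPKM in TTPΔARE, with the lowest and the highest of the 8 values both in TTPΔARE spleens.

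Both genes that passed encode enzymes acting on nucleotides or RNA. Rsad2 (chr12:26442743-26456452) was 7.21, 8.95, 10.03 and 7.49 FPKM in wild-type replicates 1 to 4 and 13.3, 10.4, 17.5 and 18.9 FPKM in TTPΔARE replicates 1 to 4. The groups did not overlap, but TTPΔARE replicate 2 stood only just above wild-type replicate 3. The change was 1.71-fold on the log2(FPKM + 0.5) scale (log2 0.77, SE 0.167, limma adjusted p = 0.0297), higher in 4 of 4 TTPΔARE spleens. Isg20 (chr7:78913396-78920396) was 8.64, 9.55, 8.03 and 8.04 FPKM in wild-type and 11.5, 11.5, 17.4 and 15.6 FPKM in TTPΔARE. Every TTPΔARE spleen was above every wild-type spleen, and replicates 3 and 4 were again the highest. Isg20 changed 1.58-fold (log2 0.66, SE 0.125, limma adjusted p = 0.0174), and its second transcript changed by 0.71 on the log2 scale (limma adjusted p = 0.0161). Both transcripts were measured in the same spleens and may share reads, so the second is not independent evidence. An exact two-sided permutation test gave p = 0.0286 for Rsad2 and for Isg20, the smallest that 4 spleens against 4 allow. Any gene whose groups do not overlap gets this p, as did 12.5% of all tested transcripts, so it adds nothing to the lack of overlap.

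The third enzyme gene, Cmpk2, lies beside Rsad2 on chromosome 12 (chr12:26469117-26479837) and encodes a mitochondrial nucleotide kinase. Its levels were 4.46, 6.01, 6.43 and 6.92 FPKM in wild-type and 6.56, 5.26, 7.06 and 6.20 FPKM in TTPΔARE, and its log2 change of 0.08 (SE 0.123) did not pass.

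The calls for Rsad2 and Isg20 depended on single spleens. The Rsad2 call was lost when replicate 1 or 4 of the wild-type group was left out (limma adjusted p = 0.0723 and 0.0902) or replicate 3 or 4 of the TTPΔARE group (0.101 and 0.0780). The Isg20 call was lost without wild-type replicate 4 (limma adjusted p = 0.0575) or TTPΔARE replicate 4 (0.0558). The log2 changes stayed at 0.65 or more for Rsad2 and at 0.55 or more for Isg20 whichever spleen was left out.

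**Figure D3:**
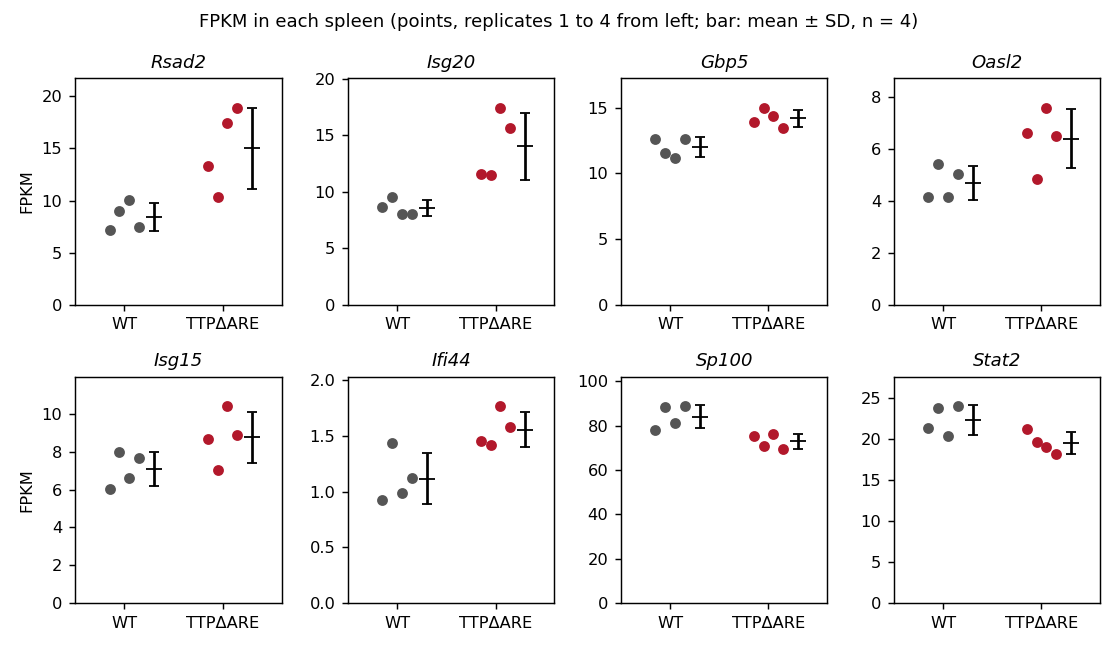
FPKM of 8 members in each spleen (vertical axes from 0), with points in replicate order and the mean ± SD (n = 4) beside them. Rsad2, Isg20 and Gbp5 are higher in every TTPΔARE spleen than in every wild-type spleen and Sp100 is lower, while the other 4 panels overlap.

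The IFIT proteins bind foreign RNA ends and block its translation, and none of the 3 genes passed. Ifit3, the most abundant, was 10.01, 11.1, 9.75 and 11.2 FPKM in wild-type and 10.04, 7.57, 11.9 and 7.74 FPKM in TTPΔARE, where the spleens split into a higher and a lower pair. Ifit1 changed by 0.15, Ifit2 by -0.05 and Ifit3 by -0.19 on the log2 scale. Reads shared with the near-identical Ifit3b copy make the Ifit3 level uncertain.

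The OAS genes encode oligoadenylate synthetases, which activate RNase L when they meet double-stranded RNA, and related proteins. All 5 members of this family had log2 changes above 0, from 0.06 (Oas2) to 0.42 (Oas3), and none passed. The signs of Oas1a and Oas2 turned when some single spleens were left out. The OAS genes tested outside the members, Oas1b, Oas1c and Oas1g, were below 0 (log2 -0.03, -0.07 and -0.13) and did not pass either. Oas3 was 2.17, 3.52, 3.50 and 3.75 FPKM in wild-type and 4.56, 3.39, 5.62 and 4.29 FPKM in TTPΔARE (SE 0.160, limma adjusted p = 0.166). Oasl2, a synthetase with a ubiquitin-like domain, was 4.16, 5.41, 4.14 and 5.02 FPKM in wild-type and 6.60, 4.84, 7.57 and 6.50 FPKM in TTPΔARE (log2 0.40, SE 0.123, limma adjusted p = 0.0971). For both genes TTPΔARE replicate 2 fell among the wild-type spleens and the other 3 stood above them. Oasl2 passed without TTPΔARE replicate 2 (limma adjusted p = 0.0245, log2 0.52). Oas2 ran from 1.96 to 4.66 FPKM within wild-type, a 2.38-fold range, the widest within a genotype among the members. Oas1a belongs to a cluster of near-identical copies, among which the reads may have been split.

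The Mx proteins are dynamin-like GTPases that block viruses, and the Mx1 gene of C57BL/6 and most other inbred strains is known to be defective. The most abundant transcript of each Mx gene is a non-coding RefSeq record. Mx1 was 2.88, 3.65, 3.61 and 3.40 FPKM in wild-type and 3.37, 2.91, 2.95 and 2.51 FPKM in TTPΔARE (log2 -0.18, SE 0.0921, limma adjusted p = 0.297), with overlap between the groups. Mx2 changed by -0.08 on the log2 scale, and its lowest level, 1.06 FPKM, stands for about 73 fragments.

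PARP9 and its partner DTX3L form a ubiquitin ligase, and PARP14 is an ADP-ribosyltransferase. Their genes changed by between -0.02 (Parp9) and 0.04 (Parp14) on the log2 scale. Parp14 was 15.4, 21.6, 17.4 and 22.5 FPKM in wild-type and 20.1, 18.6, 21.3 and 18.6 FPKM in TTPΔARE, so all the TTPΔARE spleens lay inside the wild-type range.

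Among the 7 other type I antiviral genes, none passed. Sp100, a component of nuclear bodies and the most abundant member of all, was 77.9, 88.3, 81.3 and 88.7 FPKM in wild-type and 75.2, 70.6, 76.2 and 69.6 FPKM in TTPΔARE. Every TTPΔARE spleen was below every wild-type spleen, and the log2 change was -0.20 (SE 0.0629, limma adjusted p = 0.0987; exact permutation p = 0.0286, the smallest allowed). Ifi44 was 0.920, 1.43, 0.984 and 1.12 FPKM in wild-type and 1.45, 1.42, 1.77 and 1.57 FPKM in TTPΔARE (log2 0.35, SE 0.104, limma adjusted p = 0.0851), with only TTPΔARE replicate 2 below the highest wild-type spleen. Ifi44 passed without wild-type replicate 2 (limma adjusted p = 0.0323). The remaining 5 were Bst2, which encodes tetherin, a protein that holds budding virions on the cell, Xaf1, which encodes a binding partner of the apoptosis inhibitor XIAP, Trim30a, Rtp4 and Ifi35. Their log2 changes lay between -0.07 (Rtp4) and 0.11 (Trim30a).

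The interferon gamma GTPases did not shift as a class. None of the 8 passed, 4 had log2 changes above 0 and 4 below, and their median was -0.0031, against 0.04 for the 32 type I genes and 0.0031 for all tested transcripts. The unadjusted p was under 0.05 for 1 of 8 GTPases and 8 of 32 type I genes (12.5% and 25.0%), against 21.1% of all tested transcripts, and the difference between the classes was not tested.

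Within the IRG family, Igtp, Irgm1 and Irgm2 encode regulators that guard host membranes, whereas Iigp1, Tgtp1 and Ifi47 encode effectors that load onto pathogen vacuoles. Irgm1 was 23.5, 23.6, 20.8 and 24.8 FPKM in wild-type and 24.1, 19.8, 24.0 and 21.7 FPKM in TTPΔARE. The 2 genotypes covered nearly the same range (log2 -0.05, SE 0.0771). Iigp1 was 11.7, 6.92, 6.01 and 7.35 FPKM in wild-type and 10.7, 7.88, 9.93 and 6.57 FPKM in TTPΔARE. Wild-type replicate 1 had the highest Iigp1 level, and its within-group SD of 0.352 on the log2 scale was the largest of the 41 members. Ifi47 (12.5 ± 1.43 FPKM in wild-type and 12.7 ± 1.27 FPKM in TTPΔARE, SD, n = 4 each), Igtp (20.3 ± 2.48 and 19.8 ± 2.42 FPKM) and Irgm2 (14.4 ± 1.33 and 14.4 ± 1.93 FPKM) differed between genotypes by less than the spread within them. Tgtp1 ran from 6.23 to 10.1 FPKM within wild-type and from 7.22 to 9.44 FPKM in TTPΔARE, and its near-identical neighbour Tgtp2 leaves the split of reads uncertain.

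In the GBP family, Gbp5 was the GTPase nearest to the threshold. Gbp5, a guanylate-binding protein known for promoting inflammasome assembly, was 12.6, 11.6, 11.2 and 12.6 FPKM in wild-type and 13.9, 14.995, 14.4 and 13.5 FPKM in TTPΔARE. The groups did not overlap, and the log2 change was 0.23 (SE 0.0611, limma adjusted p = 0.0596; exact permutation p = 0.0286, the smallest allowed). It was below the threshold only when spleens were weighted by their estimated variability (limma adjusted p = 0.0400). Gbp3 was 20.9, 18.8, 16.6 and 17.9 FPKM in wild-type and 18.0, 20.5, 19.3 and 19.1 FPKM in TTPΔARE (log2 0.06). Gbp2 was 20.04, 22.2, 14.4 and 20.3 FPKM in wild-type and 19.8, 20.3, 17.5 and 15.9 FPKM in TTPΔARE (log2 -0.05). Both overlapped between the genotypes, and wild-type replicate 3 was the lowest of all 8 spleens for each.

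Spleen by spleen, the type I genes and the GTPases moved apart most in 1 wild-type spleen. The level of a class was the mean, over its members, of the log2 deviation from the wild-type mean. For type I genes it was -0.14, 0.13, -0.05 and 0.06 in wild-type replicates 1 to 4 and 0.14, -0.09, 0.22 and 0.01 in the TTPΔARE replicates. For the GTPases it was 0.18, -0.01, -0.23 and 0.07 in wild-type and 0.17, -0.01, 0.08 and -0.09 in TTPΔARE. The genotypes overlapped on both levels, and the differences between their means, 0.07 for type I genes and 0.04 for GTPases, were smaller than the SD among wild-type spleens, 0.119 and 0.174. Without Rsad2 and Isg20, which rose most, the difference for the other type I genes had to be smaller, and was 0.03.

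Wild-type replicate 1 showed the widest gap between the classes. There only 5 of 32 type I genes but all 8 GTPases were above their wild-type means, and the type I level minus the GTPase level was -0.32. Wild-type replicate 2 had 30 of 32 type I genes and 4 of 8 GTPases above, and wild-type replicate 3 had 9 of 32 and 0 of 8. In TTPΔARE replicates 1 to 4 the counts were 23, 9, 27 and 13 of 32 type I genes and 7, 4, 6 and 2 of 8 GTPases. The difference between the class levels was smaller in every other spleen: 0.14, 0.19 and -0.01 in wild-type replicates 2 to 4 and -0.03, -0.08, 0.14 and 0.11 in TTPΔARE. TTPΔARE replicate 3 was the highest of the 8 spleens for 13 of the 32 type I genes and for no GTPase, and wild-type replicate 1 was the lowest for 13 type I genes and the highest for 4 of the 8 GTPases.

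The members also had a wider typical spread between spleens of 1 genotype than the tested transcripts as a whole. Their median within-group SD was 0.159 on the log2 scale, against 0.113 over all tested transcripts and 0.108 over the 13405 transcripts within the members' range of mean levels. The type I genes and the GTPases had similar medians, 0.168 and 0.165.

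**Figure D4:**
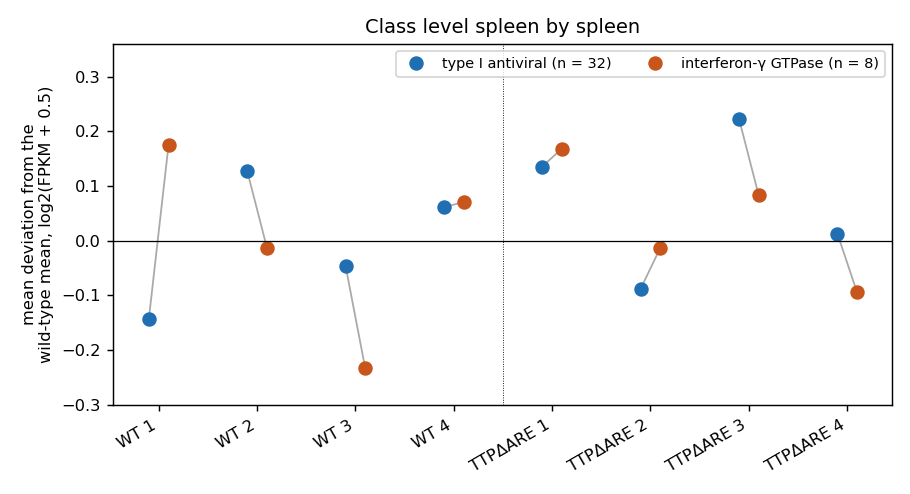
Mean log2 deviation from the wild-type mean in each spleen for the 32 type I antiviral genes (blue) and the 8 interferon gamma GTPases (orange). Wild-type replicate 1 has type I genes at -0.14 and GTPases at 0.18, and neither colour separates the genotypes.

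Markers of other cell types moved with the genotypes. Of 27 tested erythroid markers 5 rose, and all 27 had log2 changes above 0. None of them was at 0 in any spleen, and their summed level was 171 to 369 FPKM in wild-type and 339 to 618 FPKM in TTPΔARE. Their mean log2 deviation was -0.60, -0.71, 1.05 and 0.26 in wild-type replicates 1 to 4 and 1.03, 0.60, 1.58 and 1.56 in the TTPΔARE replicates. Rsad2 followed this order in part, being highest among wild-type spleens in replicate 3 and highest of all in TTPΔARE replicates 3 and 4. Isg20 was 8.03 and 8.04 FPKM in wild-type replicates 3 and 4, which had the higher erythroid levels of that group. It was 8.64 and 9.55 FPKM in wild-type replicates 1 and 2. The erythroid markers did not all share the order of their mean. In wild-type replicates 1 to 4 Alas2 was 26.5, 33.0, 20.2 and 19.2 FPKM and Bpgm 42.0, 48.4, 27.4 and 25.9 FPKM. Most other erythroid markers, such as Slc4a1 (7.46, 6.74, 44.8 and 25.9 FPKM), were higher in wild-type replicates 3 and 4. Among TTPΔARE spleens Isg20 was highest in replicates 3 and 4, as was the erythroid level. With the erythroid level in the model no member passed: the log2 change was 0.42 for Rsad2 (limma adjusted p = 0.518), 0.59 for Isg20 (0.294) and 0.30 for Gbp5 (0.277). With that term 7 of 8 GTPases had log2 changes above 0, with a median of 0.20, and across all transcripts 0 were called higher and 2 lower. The erythroid level itself differed with genotype (mean deviation 1.19 in TTPΔARE), so this fit cannot tell the 2 apart. A call lost in it does not show that a gene depends on the erythroid level.

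Markers of dendritic cells and other leukocytes also differed. Conventional dendritic cell markers rose for 4 of 13 genes (summed 129 to 148 FPKM in wild-type and 147 to 153 FPKM in TTPΔARE), and of 14 neutrophil markers 2 rose (114 to 313 and 163 to 283 FPKM). B cell markers fell for 2 of 12 genes (summed 1084 to 1158 and 950 to 1023 FPKM) and monocyte markers for 3 of 12 (740 to 943 and 618 to 640 FPKM). Lyz2, at 579 to 778 FPKM in wild-type and 444 to 484 FPKM in TTPΔARE, made up most of the monocyte sum, while 7 of the 12 monocyte markers had log2 changes above 0 and their mean log2 deviation overlapped (-0.12 to 0.14 and -0.17 to 0.07). For plasmacytoid dendritic cells, the main producers of type I interferon, 9 of 10 tested markers did not pass. The mean log2 deviation of that list was -0.07 to 0.04 in wild-type and 0.05 to 0.15 in TTPΔARE, without overlap, whereas its sum was lower in TTPΔARE (247 to 269 and 231 to 242 FPKM). Of 12 markers each, 1 rose for red pulp macrophages and 1 for NK cells, and none passed for T cells. All 12 had log2 changes above 0 for red pulp macrophages and for NK cells (medians 0.14 and 0.23). For T cells 9 of 12 had changes below 0. Over all transcripts 2.01% were called higher and 1.99% lower. No tested marker of these lists was at 0 in any spleen, and the part of these cell types in the members' levels was not tested.

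**Figure D5:**
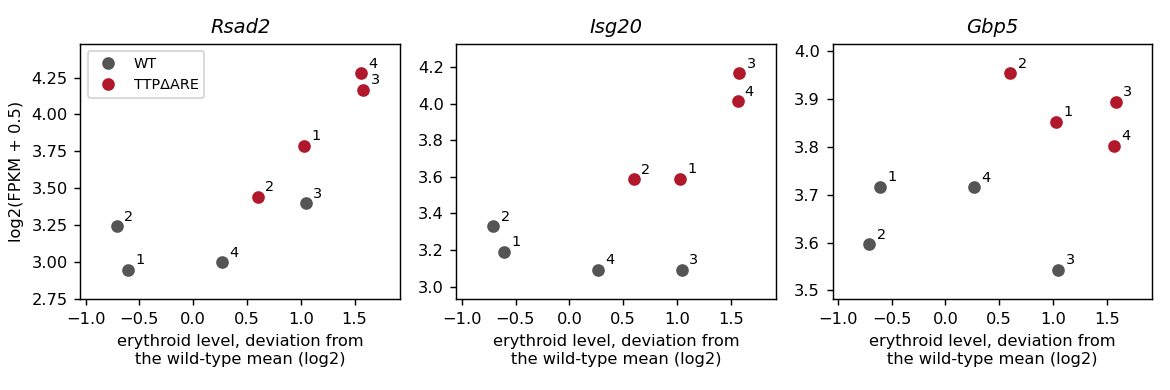
Log2(FPKM + 0.5) of Rsad2, Isg20 and Gbp5 (vertical axes, each with its own range) against the erythroid level of each spleen (horizontal axis, mean log2 deviation of 27 markers from the wild-type mean), with replicate numbers beside the points. Wild-type replicate 3, at 1.05, lies among the TTPΔARE spleens on the erythroid axis. The 3 genes shown are the members higher without overlap, so by that choice every wild-type spleen lies below every TTPΔARE spleen.

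Upstream of the members, the interferons themselves were barely detected. Of 21 ligand genes sought, 7 were in the data and only Ifng reached the level for testing, at 0.57 ± 0.14 FPKM in wild-type and 0.53 ± 0.15 FPKM in TTPΔARE (SD, n = 4 each; log2 -0.05). None of the 21 tested receptor and JAK-STAT signalling genes passed. Ifnar1 (log2 -0.11) and Ifnar2 (0.02) encode the type I receptor chains, and Ifngr1 (0.16) and Ifngr2 (0.05) those of the interferon gamma receptor. Jak2, which encodes a kinase of the gamma receptor, changed by 0.27 on the log2 scale (limma adjusted p = 0.0971).

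Among 16 genes that sense nucleic acid or induce interferon, 2 rose (12.5%, against 2.01% of all transcripts). Tlr3, the endosomal receptor for double-stranded RNA, rose from 3.19 ± 0.37 to 5.30 ± 1.04 FPKM (log2 0.64, limma adjusted p = 0.0170), and was called in 6 of the 8 fits that left out a spleen. Mavs, the mitochondrial adaptor of RIG-I and MDA5, rose from 2.88 ± 0.29 to 3.96 ± 0.27 FPKM (log2 0.40, limma adjusted p = 0.0187), and was called in 5 of the 8. With the erythroid level in the model the log2 changes were 0.45 and 0.37. Neither passed (limma adjusted p = 0.365 and 0.307), in a fit that called no transcript higher.

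Other genes known to be induced by type I interferon gave 2 rises and 2 falls among 68 tested (5.88%, against 4.00% of all transcripts), with a median log2 change of -0.04. Ube2l6, which encodes the conjugating enzyme that passes on ISG15, was 26.01, 30.2, 23.9 and 21.5 FPKM in wild-type and 39.8, 35.2, 53.3 and 50.4 FPKM in TTPΔARE. All TTPΔARE spleens were above all wild-type spleens, with replicates 3 and 4 highest as for Rsad2 and Isg20. The change was 0.79 on the log2 scale (SE 0.135, limma adjusted p = 0.0120), and it was called in all 8 fits that left out a spleen. With the erythroid level in the model, where no transcript was called higher, it was 0.77 and did not pass (limma adjusted p = 0.215). Mnda also rose (log2 0.45), and Shisa5 (-0.27) and Sp110 (-0.22), a relative of Sp100, fell. Shisa5 and Sp110 passed in none of the 8 fits that left out a spleen, and Mnda in 3.

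Other genes known to be induced by interferon gamma gave 1 rise and 1 fall among 44 tested (4.55%, against 4.00% of all transcripts), with a median log2 change of -0.02. Serpina3g, a protease inhibitor gene, rose by 0.45 and H2-T23, a non-classical MHC class I gene, fell by 0.30 on the log2 scale (limma adjusted p = 0.0326 and 0.0389), each called in 2 of the 8 fits that left out a spleen. Irf1 (0.04), a transcription factor gene, and the chemokine genes Cxcl9 (-0.01) and Cxcl10 (-0.11) did not pass. Cxcl9 was highest in wild-type replicate 1 at 9.64 FPKM, the spleen in which all 8 GTPases were above their wild-type means. Cxcl10 was also highest there (14.3 FPKM), whereas Irf1 and Ifng were highest in TTPΔARE replicate 1 (22.5 and 0.72 FPKM).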

How the data were processed

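RNA was sequenced from 8 spleens, and the authors deposited FPKM values per RefSeq transcript and spleen. BWA and mm10 are the aligner and build named by the submitters' processing notes. How fragments were counted, on which annotation and strand, and what became of reads matching several places is not given in the sources used here. Groups were taken from the genotype labels. The 41 members and all gene lists were chosen with earlier results of these data known.

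FPKM are not counts, so log2(FPKM + 0.5) was tested with limma 3.58.1 under R 4.3.3 (two-sided moderated test, eBayes with its trend option, Benjamini-Hochberg adjustment) over the 16608 transcripts averaging 0.5 FPKM or more. Fold changes on this scale understate the change of low transcripts. This step was tested on simulated data. The simulated noise was independent for each transcript, so that test could not show how variation shared between transcripts affects the calls. Depth was estimated from the spacing of low values, up to 0.5 FPKM, of which 38.1 to 42.0% were whole fragments within 0.05 at the best depth and a median of 8.64 to 8.82% at other depths, so fragments were not recovered. Fragment numbers behind a value are estimates from that depth. With no marker for batch, litter or day in the labels, none was modelled.

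Values in every spleen are given for members past the threshold, with an unadjusted p under 0.05 or without overlap, and for the most abundant member and largest changes of each role or class; Cmpk2, Iigp1 and Cxcl9 were given in addition after their values were seen. Promoter letters and coordinates are from RefSeq on GRCm38.p6, and 3′ UTRs from GENCODE M21. Alternatives were other pseudocounts, filters, scalings, variance estimates, an erythroid covariate, 1 transcript per symbol, a threshold of 0.1 and leaving out each spleen. Python 3.11.15, numpy 2.4.6, pandas 2.3.3 and matplotlib 3.10.9 were used for tables and plots. Some items are not reported here.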

Additional observations from a re-analysis of the deposited data

Results flagged for a closer look

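Each member, both class levels and their difference were examined in each genotype, 88 groups of 4 spleens in all, and the highest or lowest value stood apart from the rest in 2, by Dixon's criterion at the 95% level, which sets the gap to the nearest value against the whole range; chance gives about 1 in 20. Oas3 was 2.17 FPKM in wild-type replicate 1, against 3.50 FPKM in the next lowest wild-type spleen, a gap of 0.840 of the range. Parp9 was 12.7 FPKM in TTPΔARE replicate 3, against 12.0 FPKM in the next highest TTPΔARE spleen, a gap of 0.842 of a narrow range.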

How the results depend on the processing

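No paired analysis was possible because the labels give no replicate numbers, and those used here follow the order of deposition. Over 19 alternatives, 11 of processing and 8 leaving out a spleen, Rsad2 kept its call in 13 and Isg20 in 16. With a robust variance 1 member was higher (Rsad2 missed, limma adjusted p = 0.0567). With the erythroid level in the model 0 members were higher, 0 transcripts were higher and 2 lower in all, and the GTPase median was 0.20. At a threshold of 0.1, 5 members were higher and 1 lower, against 8.20% of all transcripts (726 higher and 636 lower). With 1 transcript per symbol 215 transcripts were lower.

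Leaving out 1 spleen at a time gave 0 to 3 members higher, 94 to 446 transcripts higher and 104 to 331 lower in all; the lowest counts came without TTPΔARE replicate 3. The log2 change then crossed 0 for 17 members with small changes: Bst2 (-0.065 to 0.039), Cmpk2 (-0.044 to 0.15), Dtx3l (-0.053 to 0.079), Gbp2 (-0.18 to 0.019), Ifi35 (-0.040 to 0.091), Ifi47 (-0.036 to 0.075), Ifit2 (-0.10 to 0.015), Igtp (-0.10 to 0.026), Irgm1 (-0.098 to 0.0079), Irgm2 (-0.095 to 0.041), Oas1a (-0.0033 to 0.20), Oas2 (-0.15 to 0.21), Parp14 (-0.055 to 0.12), Parp9 (-0.051 to 0.0058), Rtp4 (-0.15 to 0.029), Tgtp1 (-0.12 to 0.10) and Xaf1 (-0.046 to 0.056). The sign also turned with quantile normalization for Xaf1 (-0.017) and Irgm2 (0.0043), and with sample weights for Oas2 (-0.011), Igtp (0.0081), Irgm2 (0.0053), Dtx3l (-0.0061) and Bst2 (0.0056). With the erythroid level it turned for Oasl1 (-0.019), Oas2 (-0.016), Cmpk2 (-0.17), Rtp4 (0.065), Zbp1 (0.039), Igtp (0.027), Irgm2 (0.081), Gbp2 (0.29) and Bst2 (0.052). None of these values passed the test.

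With 4 spleens per genotype and low members near 73 fragments, small changes were not detectable here, and a change that missed the threshold is not shown to be absent. The difference between the class levels of type I genes and GTPases, 0.03 between genotypes, ran from -0.07 to 0.10 when a spleen was left out.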

Other observations

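Second transcripts of the members gave 12 further values, of which 11 could be tested and 1 passed, that of Isg20. These values come from the same spleens and may share reads with the first transcripts. A second transcript of Ifih1 was 1.59 ± 0.27 FPKM in wild-type and 1.91 ± 0.16 FPKM in TTPΔARE (SD, n = 4 each), a log2 change of 0.22 (limma adjusted p = 0.220), while the more abundant one changed by 0.06. The coding transcript of Mx1 was at 0.73 ± 0.11 FPKM in wild-type and 0.68 ± 0.06 FPKM in TTPΔARE, below its non-coding record at 3.39 ± 0.35 and 2.94 ± 0.35 FPKM.

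Besides Ifng, 6 interferon ligand genes were in the data. Ifnz had a value above 0 in 6 of 8 spleens, at most 0.08 FPKM, and each of the other 5 was listed at 0 in 6 or 7 of 8. Ifna13 and Ifnab were above 0 only in TTPΔARE spleens, in 2 each and at no more than 0.0771 and 0.0515 FPKM, levels too low to test.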
